A study of Bos taurus with 12 samples.

Results

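The miR-130/miR-301/miR-454 family comprised 5 mature bovine miRNAs, bta-miR-130a, bta-miR-130b, bta-miR-301a, bta-miR-301b and bta-miR-454, chosen by name out of the 755 mature names counted in the granulosa cell libraries. All 5 names were found in the count files, and each was listed with 1 precursor entry. The 12 libraries came from granulosa cells of estrous-synchronised Simmental heifers, with subordinate follicles (SF) and dominant follicles (DF) each sampled at day 3 as well as at day 7 of the synchronised cycle, and 3 biological replicates for each of these 4 groups. Follicles were classed as SF or DF by diameter, with other limits at each day, and fluid was pooled by follicle size before the granulosa cells were spun down, although the methods list no more dominant follicles for day 7 than there were libraries, so that a DF library of that day may stand for a single follicle. The animals of both days were treated alike to synchronise the cycle, the days came from different heifers, and the labels do not say which replicate came from which animal, so that p values describe the spread between these samples, which may in part be technical.

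Members of a miRNA family carry the same seed, the short stretch near the 5′ end that pairs with target mRNAs, and are therefore predicted to act on largely the same transcripts. The miR-130/miR-301/miR-454 family is broadly expressed. The adipogenic receptor gene PPARG is a known target of miR-130, miR-130a is known from angiogenic endothelial cells, where it represses the homeobox genes GAX and HOXA5, and miR-301a is known to act on the NF-κB repressor NKRF. Granulosa cells surround the oocyte, respond to gonadotropins and produce estradiol, and they change towards dominance or atresia as the follicle wave proceeds. In the RefSeq gene table of the bovine assembly ARS-UCD2.0, in which all 5 genes were found, MIR130B and MIR301B were on one chromosome with 0 annotated genes between them, and MIR301A and MIR454 likewise with 0 genes between them, both inside the gene SKA2, which encodes a subunit of the spindle and kinetochore associated complex. MIR130A stood alone. The count files were made with another assembly, so that only this order was used.

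The libraries held between 160418 and 405129 reads on known miRNAs, and 3 reads, the limit that a count of 0 allows, were worth between 1.88 and 5.12 normalised counts, that is, raw counts divided by the size factor of the library. The DF libraries of day 7 stood apart in the leukocyte, the theca and stroma, and the gonad and granulosa miRNAs. They overlapped with other libraries in the erythrocyte and endothelial miRNAs. The 4 leukocyte miRNAs (miR-142-3p, miR-142-5p, miR-150 and miR-223) summed to 803 to 8856 normalised counts there, against 110 to 226 in SF and 118 to 166 in DF at day 3 and 189 to 723 in SF at day 7, and bta-miR-142-3p had no reads in both groups of day 3. The theca and stroma pair (miR-143 and miR-145) summed to 6894 to 14551 in DF at day 7 and to 2262 to 5033 in the other libraries. The 3 gonad and granulosa miRNAs (miR-202, miR-383 and miR-224) summed to 380 to 1016 in DF at day 7 and to 2386 to 3903 elsewhere, and bta-miR-383 had no reads in DF at day 7. The 3 erythrocyte miRNAs (miR-451, miR-144 and miR-486) summed to 829 to 2381 in DF at day 7 and to 323 to 1684 elsewhere, with no reads of bta-miR-144 in SF at day 7, and the 2 arms of the endothelial miR-126 to 133 to 164 against 63.1 to 226. None of these miRNAs is restricted to a single cell type. In a bulk sample a change in the number of cells of a type and a change in RNA per cell cannot be told apart.

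The member with the most reads was bta-miR-130a, which had between 179 and 626 reads in every library. In normalised counts it had 387, 352 and 468 in the SF libraries of day 3 (replicates 1, 2 and 3) and 386, 392.4 and 323 in those of DF. At day 7 the SF libraries had 432, 486 and 564 and the DF libraries 260, 305 and 227. Every DF library of day 7 was thus below all 9 other libraries. Among all miRNAs tested, groups did not overlap for 45.7% between SF and DF at day 7 and for 50% in DF between the days. The other 3 groups of bta-miR-130a overlapped with their neighbours. At day 3 the means were 402 ± 59.8 (SF) and 367 ± 38.6 (DF), and at day 7 they were 494 ± 66.1 (SF) and 264 ± 39.3 (DF) (SD, n = 3), so that SF at day 7 was the highest group, followed by SF at day 3, DF at day 3 and DF at day 7. By mean it was number 46 of the 314 miRNAs detected in SF at day 7 and number 77 of 315 in DF, where detection means at least 1 read in at least 2 replicates.

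The paralogue bta-miR-130b showed the reverse order at day 7. Its normalised counts were 17.4, 11.0 and 22.5 in SF and 15.4, 12.5 and 17.0 in DF at day 3. At day 7 they were 15.5, 32.2 and 31.0 in SF and 143, 181 and 149 in DF. All DF libraries of day 7 were above all others, with no overlap, and the remaining 3 groups overlapped among themselves. As given above, 45.7% (SF and DF at day 7) and 50% (DF between the days) of all miRNAs tested had no overlap. The group means were 17.0 ± 5.76 (SF) and 15.0 ± 2.28 (DF) at day 3, and 26.2 ± 9.28 (SF) and 158 ± 20.2 (DF) at day 7 (SD, n = 3). By mean it was number 159 of 318 detected miRNAs in DF at day 3 and number 92 of 315 in DF at day 7.

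**Figure D1:**
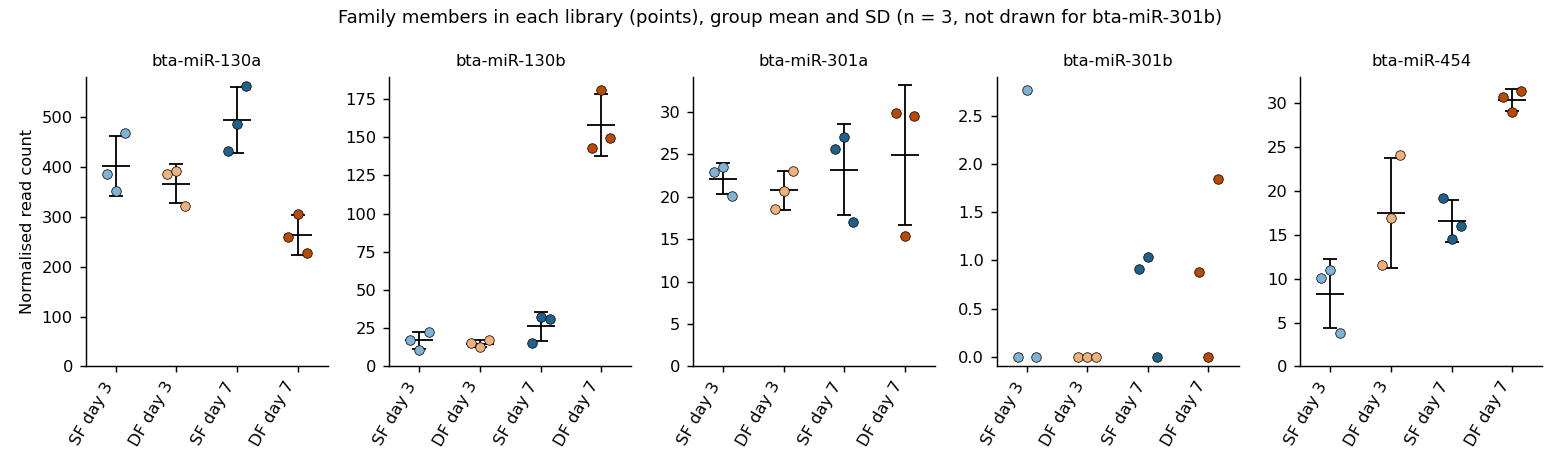
Normalised read counts (raw count divided by the size factor of the library) of the 5 family members in the 4 groups, with 1 point per library and, except for bta-miR-301b, the group mean and SD (n = 3) as a line with error bars; each panel has its own linear axis. The DF libraries of day 7 sit between 143 and 181 for bta-miR-130b, above all others, and between 227 and 305 for bta-miR-130a, below all others. Groups did not overlap for 45.7% (SF and DF at day 7) and 50% (DF between the days) of all miRNAs tested.

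The intronic pair of SKA2 was less abundant. The counts of bta-miR-301a were alike in all groups, with 22.9, 23.5 and 20.04 normalised counts (SF) and 18.5, 20.7 and 23.0 (DF) at day 3, and 25.6, 26.97 and 17.0 (SF) and 29.8, 15.4 and 29.5 (DF) at day 7. No pair of groups was separated for this miRNA, and the group means ran only from 20.7 ± 2.28 in DF at day 3 to 24.9 ± 8.27 in DF at day 7 (SD, n = 3). The lowest DF value at day 7 belonged to replicate 2, which was also the library with the fewest reads.

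For bta-miR-454 the normalised counts were 10.1, 11.0 and 3.76 (SF) and 11.6, 16.9 and 24.1 (DF) at day 3, and 19.2, 14.5 and 15.99 (SF) and 30.7, 29.0 and 31.4 (DF) at day 7. The DF libraries were above the SF libraries of the same day on both days, and the day 7 libraries were above those of day 3 in both follicle classes. Among all miRNAs tested, SF and DF did not overlap for 27.8% at day 3 and for 45.7% at day 7. Between the days it was 50% in DF and 13.9% in SF. The means were 8.29 ± 3.95 and 17.5 ± 6.27 in SF and DF at day 3 and 16.6 ± 2.39 and 30.4 ± 1.23 at day 7 (SD, n = 3), with DF at day 3 and SF at day 7 overlapping in the middle of the order. In raw reads it had 3 to 35 per library, so that counting error adds to its spread, by an amount that was not tested.

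The partner of bta-miR-130b in the genome, bta-miR-301b, was at the limit of the depth. It had 7 reads in all 12 libraries, of which 2 fell in SF replicate 2 of day 3, 1 each in SF replicates 1 and 2 of day 7, 1 in DF replicate 1 of day 7 and 2 in DF replicate 3 of day 7. No library reached 3 reads, and DF at day 3 had none. In the DF libraries of day 7 a total of 431 reads were counted for bta-miR-130b and 3 for bta-miR-301b, and the groups of bta-miR-301b, all at or under 3 reads, could not be compared at this depth. The fits return a value for it that depends on the prior count, and this value is not read as a fold change.

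To ask whether the family differed with follicular recruitment and selection, SF and DF were compared at day 3 with edgeR's quasi-likelihood test over all 335 miRNAs detected in at least 1 of both groups. A miRNA was called when its log2 fold change reached 1 in either direction with an unadjusted p up to 0.05 and a false discovery rate (Benjamini-Hochberg) up to 10%, and 5.67% of those tested were called. Of the 4 members tested, 0 were called with edgeR and 0 with DESeq2, and 1 had an unadjusted p of at most 0.05. That was bta-miR-454, with a log2 fold change of -1.08 (adjusted p = 0.11 in edgeR, standard error, SE, 0.43) and a 95% interval of -1.97 to -0.19, which passed the fold threshold but not the false discovery rate. Single libraries decide this call. It was made without SF replicate 2 (log2 fold change -1.33) or DF replicate 1 (-1.29), while the log2 fold change was -0.76 without SF replicate 3 and -0.82 without DF replicate 3 (adjusted p = 0.307 and 0.327 in edgeR), under the fold threshold. The SF libraries were below the DF libraries for this miRNA, but groups did not overlap for 27.8% of all miRNAs tested. For bta-miR-130a, bta-miR-130b and bta-miR-301a the edgeR intervals of the log2 fold change were -0.24 to 0.41, -0.58 to 0.90 and -0.57 to 0.67. In this fit a change of 2-fold in either direction lay outside each of them. For bta-miR-130b this depends on the fit. DESeq2 gave it a log2 fold change of 0.15 with an SE of 0.50, against 0.36 in edgeR, so that a 2-fold rise is not excluded.

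By day 7, the paper states, a follicle can reach dominance, while estradiol production of the first dominant follicle is falling. At that day 33.4% of the 350 miRNAs tested were called between SF and DF, 15.1% being higher and 18.3% lower in SF than in DF. Of the 5 members, 1 was called. The level of bta-miR-130b was lower in SF, with a log2 fold change of -2.51 (adjusted p = 0.000418 in edgeR, SE 0.33) and a 95% interval of -3.26 to -1.77. By size of the change this was number 49 of the 117 called miRNAs. Its paralogue bta-miR-130a went the other way, with a log2 fold change of 0.97 (adjusted p = 0.0102 in edgeR, SE 0.24) and an interval of 0.45 to 1.499. It passed the false discovery rate, as did 39.7% of all miRNAs tested, and stopped just short of the fold threshold. Without SF replicate 1 it had a log2 fold change of 1.07 and without DF replicate 2 one of 1.10, and in both fits it was called, so that its place on either side of the threshold rests on single libraries, while the SF libraries were above the DF libraries with either the size factors or the library totals as the scale.

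The SF and DF libraries were also separated for bta-miR-454 at day 7, as for 45.7% of the miRNAs tested, and the log2 fold change was -0.79 (adjusted p = 0.0887 in edgeR, SE 0.32) with an interval of -1.52 to -0.07, under the fold threshold. Its adjusted p ran from 0.081 to 0.242 without single libraries in edgeR and was 0.207 in DESeq2. For bta-miR-301a it was -0.05 (adjusted p = 0.92 in edgeR, SE 0.37), with an interval of -0.88 to 0.79.

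The result for bta-miR-130b was placed beside the markers of other cells that moved in the same DF libraries. The leukocyte miRNAs summed to 3190, 8856 and 803 normalised counts in DF replicates 1, 2 and 3 of day 7, and bta-miR-130b had 143, 181 and 149 in the same libraries. Replicate 3, with the fewest leukocyte reads of these libraries, had the most of the theca and stroma pair, at 14551 against 10144 in replicate 1 and 6894 in replicate 2. Replicate 2, the highest in leukocyte miRNAs, was also the lowest in the gonad and granulosa miRNAs, at 380 against 783 and 1016, and the highest in bta-miR-130b. The same replicate had the fewest reads and was the highest in bta-miR-130a as well, at 305 against 260 in replicate 1 and 227 in replicate 3. As a share of the reads of the family, bta-miR-130b held 30.8%, 34.1% and 34.0% in replicates 1, 2 and 3. Without replicate 2 the log2 fold change of bta-miR-130b between SF and DF at day 7 was -2.40 (adjusted p = 0.00474 in edgeR, SE 0.34). The part of leukocyte, theca or stroma cells in the result was not tested.

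In DF, 40.3% of 360 miRNAs were called between day 7 and day 3, 24.4% with higher counts at day 7, the question being how miRNAs change over time in the dominant follicle. The groups of this comparison share the DF libraries of day 7 with the comparison of SF and DF at day 7, so that both rest on the same 3 libraries for the high values of bta-miR-130b. Of the 5 members, bta-miR-130b alone was called. It rose with a log2 fold change of 3.38 (adjusted p = 3.09e-07 in edgeR, SE 0.28) and an interval of 2.78 to 3.98, number 50 by size among the 145 called miRNAs. Without DF replicate 2 of day 7 the value was 3.27.

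The other members had smaller log2 fold changes in DF. For bta-miR-130a the log2 fold change was -0.50 (adjusted p = 0.0931 in edgeR, SE 0.22) and for bta-miR-454 it was 0.79 (adjusted p = 0.0958 in edgeR, SE 0.36). Both were within the false discovery rate, as were 47.2% of all miRNAs tested, and below the fold threshold. The day 7 libraries lay fully below those of day 3 for bta-miR-130a and fully above them for bta-miR-454, a separation found for 50% of the miRNAs tested. Both were near the limit of the false discovery rate. Without single libraries the adjusted p in edgeR ran from 0.0243 to 0.230 for bta-miR-130a and from 0.0731 to 0.332 for bta-miR-454, which had an adjusted p of 0.149 in DESeq2. The log2 fold change of bta-miR-454 was 0.53 without DF replicate 1 of day 3 and 1.01, then called, without DF replicate 3 of day 3. For bta-miR-301a the log2 fold change was 0.28, with an interval of -0.48 to 1.04.

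In SF, 0.593% of 337 miRNAs were called between the days. None of the 5 members was called with edgeR or with DESeq2, and 0 of them had an unadjusted p of at most 0.05. The log2 fold changes of day 7 against day 3 were 0.32 for bta-miR-130a (interval -0.08 to 0.71), 0.63 for bta-miR-130b (-0.26 to 1.53), 0.09 for bta-miR-301a (-0.70 to 0.88) and 1.00 for bta-miR-454 (-0.02 to 2.02). The intervals of bta-miR-130b and bta-miR-454 reach beyond a 2-fold rise. The day 7 libraries of SF were above those of day 3 for bta-miR-454, as groups were separated for 13.9% of all miRNAs tested.

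Whether the follicle classes differed more at one day than at the other was tested as the interaction of follicle class and day over all 12 libraries, where 26.5% of 378 miRNAs were called (14.3% with a negative value) and 29.1% passed the false discovery rate. Of the 5 members, 1 was called. For bta-miR-130b the interaction was -2.79 on the log2 scale (adjusted p = 0.000236 in edgeR, SE 0.46), and it was called. For bta-miR-130a it was 0.78 (adjusted p = 0.0497 in edgeR, SE 0.28), in the opposite direction and under the fold threshold. For bta-miR-301a and bta-miR-454 it was -0.24 (interval -1.20 to 0.72) and 0.17 (interval -0.96 to 1.30). The intervals are too wide to say whether the difference of bta-miR-454 between the follicle classes was alike on both days.

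**Figure D2:**
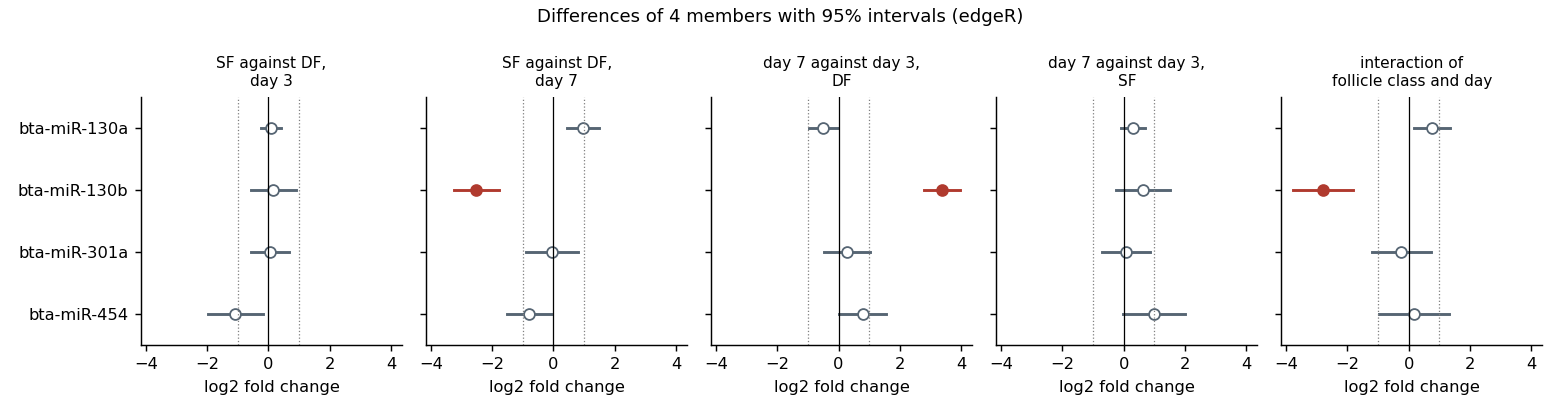
Log2 fold changes (horizontal axis) of 4 members in the 4 comparisons and the interaction, with 95% intervals as bars; filled red points passed all thresholds, open points did not, and dotted lines mark a log2 fold change of 1 in either direction. For bta-miR-130b the values were -2.51 between SF and DF at day 7, 3.38 in DF between the days and -2.79 for the interaction, and bta-miR-130a lay on the other side of 0 each time.

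Since bta-miR-130a fell short of the fold threshold, the family was also described as a whole, by its sum and by the share of each member in it. Its summed reads were between 0.145% and 0.195% of each library. The sum was 451 ± 58.5 (SF) and 420 ± 29.5 (DF) normalised counts at day 3, and 561 ± 67.1 (SF) and 478 ± 47.2 (DF) at day 7 (SD, n = 3). From day 3 to day 7 in DF the mean of bta-miR-130b was higher by 143 normalised counts and that of bta-miR-130a differed by -103. The family as a whole differed by 57.6 counts, and its DF libraries at day 7, from 439 to 530, overlapped with those of day 3, from 387 to 443.

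The shares of the members within a library do not depend on the scaling. The 9 libraries other than those of DF at day 7 were alike in the shares of bta-miR-130a and bta-miR-130b. In these, bta-miR-130a held between 83.4% and 91.0% of the reads of the family and bta-miR-130b between 2.76% and 5.73%. The share of bta-miR-454 differed more among them, from 0.73% in SF replicate 3 of day 3 to 6.22% in DF replicate 3 of day 3. In DF at day 7, bta-miR-130a held 55.96%, 57.6% and 51.7% and bta-miR-130b 30.8%, 34.1% and 34.0% in replicates 1, 2 and 3. The exact (Clopper-Pearson) 95% intervals of bta-miR-130b, which cover counting error only, ran from 26.9% to 34.9% in DF replicate 1 and from 3.93% to 8.04% in SF replicate 2 of day 7, the highest of the other libraries. For each read of bta-miR-130b there were 1.52 to 1.82 reads of bta-miR-130a in DF at day 7 and 15.1 to 31.9 in the other libraries. On the log2 scale the ratio of bta-miR-130b to bta-miR-130a was -4.56 ± 0.30 (SF) and -4.58 ± 0.37 (DF) at day 3, and -4.27 ± 0.44 (SF) and -0.74 ± 0.13 (DF) at day 7 (SD, n = 3). No test was made on this ratio, because the opposite directions were known when the family was chosen.

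**Figure D3:**
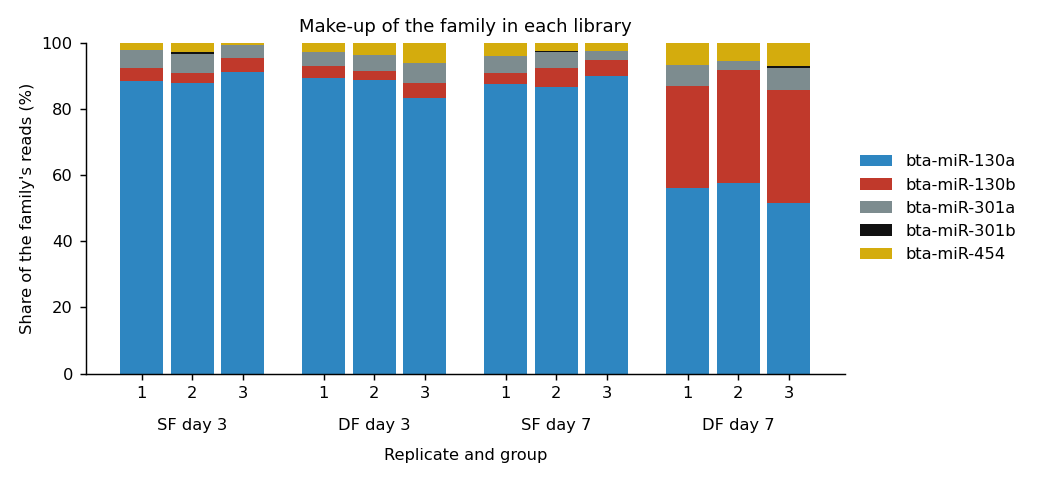
Share of each member in the reads of the family (vertical axis, percent) in each of the 12 libraries, ordered by group and replicate, as stacked bars that sum to all reads of the family. The share of bta-miR-130b was 30.8% to 34.1% in DF at day 7 and at most 5.73% in the other libraries.

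The miRNAs with the most similar pattern were found by the mean absolute difference of centred log2(normalised count + 1) over the 12 libraries, among miRNAs with a mean of at least 10 reads. For bta-miR-130b they were bta-miR-27a-3p (0.23), bta-miR-181a (0.26) and bta-miR-199c (0.29). The first of these had group means of 117, 79.4, 145 and 819 normalised counts in SF and DF at day 3 and SF and DF at day 7. For bta-miR-130a they were bta-miR-320a (0.18), bta-let-7g (0.21) and bta-miR-361 (0.22), for bta-miR-301a bta-miR-93 (0.18), bta-miR-148a (0.18) and bta-miR-186 (0.19), and for bta-miR-454 bta-miR-22-3p (0.34), bta-miR-16a (0.37) and bta-miR-103 (0.41). No member was among the 3 closest miRNAs of another member. The distance between the paralogues bta-miR-130a and bta-miR-130b was 1.39. Ordered by closeness to bta-miR-130a, bta-miR-130b was number 168 of the 185 miRNAs compared, and bta-miR-130a was number 122 of 185 in the order of closeness to bta-miR-130b. The neighbours in SKA2, bta-miR-301a and bta-miR-454, were 0.58 apart, with bta-miR-301a at number 34 of 185 in the order of closeness to bta-miR-454 and bta-miR-454 at number 108 of 185 in that to bta-miR-301a. These neighbours had means of only 23.7 and 18.75 reads, so that counting error adds to their distance, by an amount that was not tested.

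**Figure D4:**
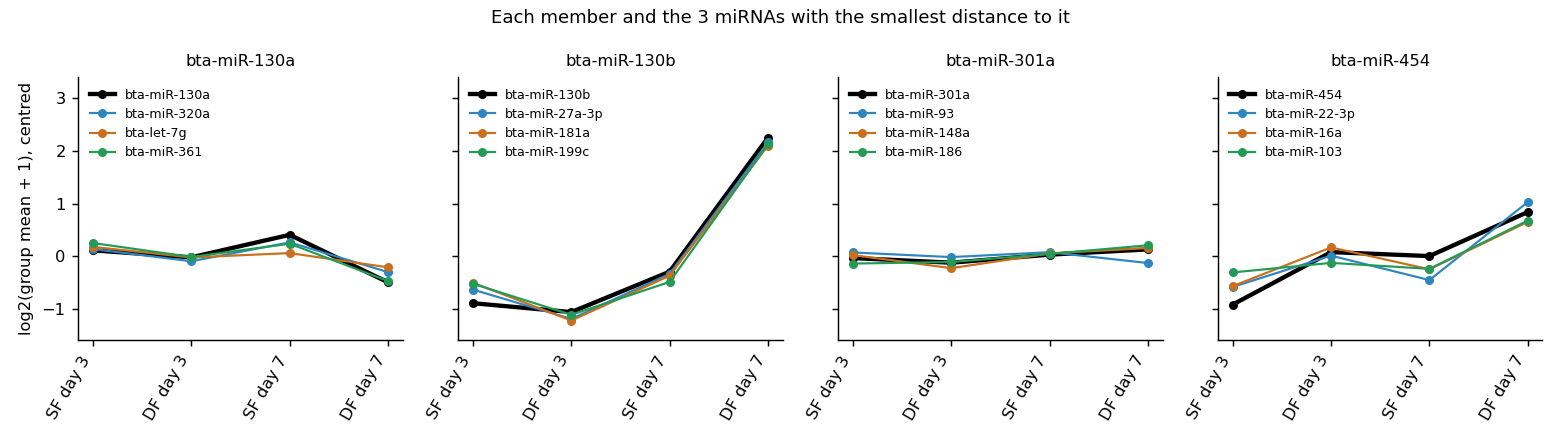
Group means as log2(mean normalised count + 1), centred on the mean of the 4 groups (vertical axis), for each of 4 members (black) and the 3 miRNAs with the smallest distance to it (colours). The lines of bta-miR-130b and its 3 closest miRNAs lie together, with the highest point in DF at day 7. These miRNAs were picked for closeness over the same libraries, so that this likeness follows from the choice. In DF, 24.4% of all miRNAs tested were called with higher counts at day 7.

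The family was set beside 11 miRNAs of the miR-17, miR-19 and miR-148 families, whose 5′ ends are known to overlap the seed of the miR-130 family with a shift. All 11 were tested in each comparison. Between SF and DF, 0 of the 11 were called at day 3 with edgeR and 0 with DESeq2, against 5.67% of all miRNAs in edgeR, and 3 had an unadjusted p of at most 0.05. At day 7 it was 2 of 11, against 33.4%. There bta-miR-148b was higher in SF, with a log2 fold change of 1.00 (adjusted p = 0.0151 in edgeR, SE 0.26), and bta-miR-152, of the same family, was lower, with -1.39 (adjusted p = 0.0102 in edgeR, SE 0.34). The median of the 11 was 0.31, against -0.05 over all miRNAs. In DF between the days 1 of the 11 was called, against 40.3% of all miRNAs, bta-miR-148b with a log2 fold change of -1.51 (adjusted p = 0.000107 in edgeR, SE 0.23), and the median was -0.40 against 0.05. In SF 0 of the 11 were called with edgeR or DESeq2, against 0.593%, and 0 had an unadjusted p of at most 0.05. For the interaction 2 of 11 were called with edgeR, against 26.5%, and 1 of 11 with DESeq2. The 2 of edgeR were both positive. For bta-miR-148b the value was 1.30 (adjusted p = 0.00389 in edgeR, SE 0.30) and for bta-miR-20b it was 2.32 (adjusted p = 0.0742 in edgeR, SE 0.90). Within the miR-148 family, bta-miR-148b and bta-miR-152 thus lay on different sides of 0 at day 7, while bta-miR-148a was at -0.02 (adjusted p = 0.92 in edgeR, SE 0.20). The summed level of the list, 5845 to 9389 normalised counts in DF at day 7, overlapped with that of SF, 7496 to 7738. Most of this sum was bta-miR-148a, with group means of 5984 in SF and 6429 in DF at day 7.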

How the data were processed

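Small RNA of granulosa cells was sequenced by the authors with the TruSeq Small RNA protocol on an Illumina HiSeq. Reads were base called with CASAVA 1.8.0, checked with FastQC, trimmed with cutadapt, aligned to the bovine genome UMD 3.1 and counted on the bovine miRNAs of miRBase with miRDeep2. The authors deposited raw read counts for each pair of mature and precursor miRNA, without normalization. PCR copies of a molecule were not told apart, so that the binomial intervals of shares and the floors cover counting error only, while the intervals of log2 fold changes come from the spread between replicates. Ligation differs between miRNAs, so levels of different members compare loosely.

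For each of the 755 mature names only the precursor entry with the most reads in the 12 libraries together was kept. Counts were tested in R 4.3.3 with edgeR 4.0.16 (glmQLFit and glmQLFTest, median-of-ratios factors, prior count 0.125, two-sided), in the 6 libraries of a comparison and over miRNAs with at least 1 read in at least 2 replicates of either group, with Benjamini-Hochberg adjustment over all of them. Standard errors are the log2 fold change divided by the square root of F. Levels used size factors over all 12 libraries. Every member is named, and for each member with a mean of at least 10 reads the 3 closest miRNAs. The members, lists and tests were chosen with earlier results of these data known. The procedure was also run on simulated counts with a single fixed dispersion, the spread beyond counting error. The fitted dispersion was higher than that in every comparison except SF against DF at day 3, for example 0.107 between SF and DF at day 7. The simulation therefore does not show how reliable the calls in these data are.

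The alternatives were DESeq2 1.42.0, other normalizations and filters, one fit over all libraries, other treatments of precursors, a replicate block, other thresholds and leaving out each library. Same-numbered SF and DF libraries of day 7 correlated by 0.13, 0.16 and 0.18 in their deviations from the group means over 186 miRNAs, so that the numbers may pair these libraries. In the other comparisons the correlations ran from -0.14 to 0.11. Sequences are not printed, as no sequence table was used here.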

Additional observations from a re-analysis of the deposited data

Results flagged for a closer look

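The difference of bta-miR-130b between SF and DF was not the same on both days. The interaction of follicle class and day was -2.79 on the log2 scale (standard error 0.46, adjusted p = 0.000236, edgeR). With all 12 libraries in 1 fit the log2 fold change was 0.20 at day 3 and -2.59 at day 7. In the separate fits of each day it was 0.16 at day 3 and -2.51 at day 7. All 3 DF libraries of day 7 were above the other 9 libraries. Groups did not overlap for 45.7% (SF and DF at day 7) and 50% (DF between the days) of all miRNAs tested. Groups of 3 libraries are too small for a test of single outlying samples.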

How the results depend on the processing

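The call of bta-miR-130b at day 7, in DF between the days and in the interaction was kept under every alternative run and without each library in turn, with log2 fold changes of -2.68 to -2.33, 3.24 to 3.399 and -2.81 to -2.69 under the alternatives and of -2.70 to -2.23, 3.22 to 3.47 and -2.97 to -2.52 without single libraries. With a replicate block, which the correlations allow as a pairing at day 7 only, the number of members called was 0, 1, 1, 0 and 1 as without it, and bta-miR-130b had -2.56, 3.38 and -2.81. Between SF and DF at day 3 the number of members called was 1 with TMM factors, with no filter and with all precursor entries, and 0 to 1 without single libraries; this was bta-miR-454, with -1.11, -1.08 and -1.04 (adjusted p = 0.0957, 0.0781 and 0.0828, edgeR). At day 7 the number was 2 with all precursor entries (bta-miR-130a at 1.15) and 1 to 2 without single libraries. In DF it was 1 to 2 without single libraries, with bta-miR-454 called without DF replicate 3 of day 3 and, without DF replicate 2 of day 7, bta-miR-301b, for which 3 reads stood against 0 and no rise is read. The cause was not tested. Values near 0 that were not called changed sign. For bta-miR-301a they were -0.0036 at day 3 and -0.051 in SF with library size alone, and 0.12 at day 7 with all precursor entries. Without single libraries they ran at day 3 from -0.040 to 0.13 (bta-miR-130a), -0.071 to 0.31 (bta-miR-130b) and -0.037 to 0.13 (bta-miR-301a), at day 7 from -0.27 to 0.14 (bta-miR-301a), in SF from -0.065 to 0.28 (bta-miR-301a), and for the interaction from -0.15 to 0.43 (bta-miR-454). The fitted values of bta-miR-301b, which rest on 0 to 3 reads a group and are no fold changes, ran from -0.90 to 0.21 at day 7 and from -0.90 to 2.63 in SF. Over all miRNAs the number called at day 3 was 19, against 11 with DESeq2, 12 with at least 10 reads in at least 3 samples and 8 with all 12 libraries in 1 fit. In DF it was 145 against 92 with that filter, and in SF 2 against 5 with DESeq2, 12 with no filter, 10 with all entries, 7 with the block and 1 with all libraries in 1 fit. With the stricter filter edgeR called 0 in SF, where 25 had an unadjusted p of at most 0.05. Without SF replicate 1 of day 3 the number at day 3 was 10, and in SF single libraries moved it between 0 (without SF replicate 1 or 2 of day 3 or replicate 2 of day 7) and 20 (without SF replicate 1 of day 7). Library size alone moved the median of all miRNAs by -0.146 at day 7, -0.139 in DF and -0.142 in SF. Depth limits bta-miR-301b most and bta-miR-454 next.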
